A study of Rattus norvegicus with 16 samples.

Results

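The 5 miRNAs described here, rno-miR-23a, rno-miR-27a, rno-miR-24, rno-miR-23b and rno-miR-27b, are the guide strands of the paired miR-23/27/24 clusters of the rat genome. They were picked from the array annotation by a list of names. The list includes no measured value but was chosen with earlier results of these data known. Its members make up 5 of the 677 miRNAs on the array and 5 of the 114 tested. Small RNA was profiled on 16 single-colour arrays, with 4 arrays for each group. Old EDL (extensor digitorum longus, a mainly fast-twitch muscle) came from rats aged 25 to 28 months and young EDL from rats aged 6 to 7 months. Old soleus (a mainly slow-twitch muscle) and young soleus came from rats of those same ages. All groups were whole muscle from male Fischer 344 rats, none of which carried a stated transgene or treatment, so every value is an average over muscle fibres, vessels and other cells. In such tissue, fewer cells of a type and less RNA per cell cannot be told apart. The arrays are named by age, muscle and the number in their source label. The labels do not say that the arrays stand for separate animals, so a p-value here reflects the scatter among arrays, part of which may be technical.

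The 2 clusters are paralogs. In each one a primary transcript carries a miR-23, a miR-27 and a miR-24 hairpin in that order, and Drosha and Dicer cut the mature miRNAs out of them. An Argonaute protein then uses the seed at the 5′ end of the miRNA to find messenger RNAs to repress. In mouse muscle, miR-23a is known to repress the ubiquitin ligases atrogin-1 and MuRF1, which mark proteins for breakdown during atrophy. Mouse miR-27 is known to act on Pax3 in muscle progenitors and on myostatin, an inhibitor of muscle growth, and mouse miR-24 is known to favour myoblast differentiation. Both clusters are also known from endothelial cells.

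The mature sequences below, from RefSeq (build GRCr8), show how closely the array had to discriminate. All 5 members were matched. Capitals mark the seed, bases 2 to 8 from the 5′ end.
miR-23a-3p: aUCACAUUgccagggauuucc
miR-23b-3p: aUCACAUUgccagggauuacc
miR-27a-3p: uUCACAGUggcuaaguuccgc
miR-27b-3p: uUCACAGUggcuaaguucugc
miR-24-3p: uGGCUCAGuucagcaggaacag
The miR-23 paralogs are identical at 20 of 21 bases and differ by U19A, with positions counted from the 5′ end and the miR-23a base given first. The miR-27 paralogs are likewise identical at 20 of 21 bases and differ by C19U, with the miR-27a base first. Each pair therefore shares its seed, and the miR-23 and miR-27 seeds are equal at 6 of 7 positions. The miR-24 seed is equal to the other seeds at 0 of 7 positions. No other mature rat miRNA in the RefSeq table holds any of these seeds. The files used here give no probe sequences, and how far a probe for one paralog also binds the other was not tested.

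The miR-23a cluster (Mir23a, Mir27a and Mir24-2) lies on the minus strand at chr19:40859455-40859843 in GRCr8, a span of 389 bases with gaps of 79 and 40 bases between hairpins. It overlaps no other gene of the RefSeq gene table, and the nearest gene, Zswim4, ends 1713 bases away. The miR-23b cluster (Mir23b, Mir27b and Mir24-1) lies on the minus strand at chr17:1818669-1819482, a span of 814 bases with a gap of 410 bases before Mir24-1. It falls inside Aopep, a gene annotated on the same strand, and overlaps Mir3074 and the end of Fancc, which is annotated on the opposite strand. The 2 miR-24 hairpins are printed here because their mature product, in capitals, is the same, so a miR-24 signal on the array can come from either chromosome.
Mir24-2 (chromosome 19): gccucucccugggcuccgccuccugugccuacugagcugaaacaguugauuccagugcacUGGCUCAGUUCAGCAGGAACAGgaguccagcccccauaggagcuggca
Mir24-1 (chromosome 17): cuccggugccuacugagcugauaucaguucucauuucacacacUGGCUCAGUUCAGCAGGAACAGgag

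**Figure D1:**
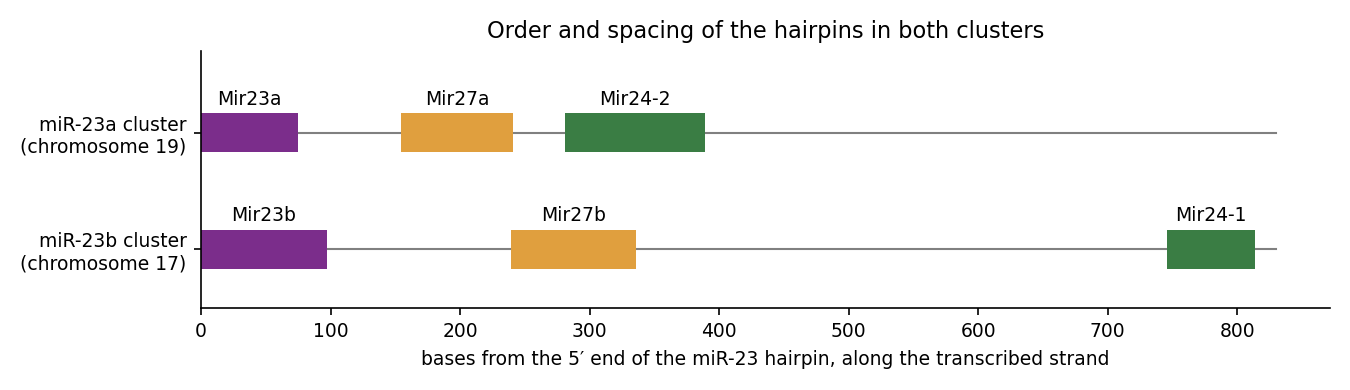
Hairpins of both clusters drawn to scale along the transcribed strand, in bases from the 5′ end of the miR-23 hairpin (x axis), with the miR-23a cluster above the miR-23b cluster. Both keep the order miR-23, miR-27, miR-24, but the miR-23b cluster is longer (814 bases against 389 bases), mainly through the 410-base gap before Mir24-1.

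A level below is the log2 of a miRNA's processed signal over the array's 75th percentile, taken over 95 probes detected above background on each of the 16 arrays. That percentile was 400 to 472 signal units on old soleus arrays and 290 to 681 on young soleus arrays, against 866 to 1830 on old EDL arrays and 589 to 1864 on young EDL arrays. Soleus arrays had 57 to 85 miRNAs well above background, and EDL arrays had 83 to 138. The scanner software's check of the labelling spike-in was in range on 2 of 8 soleus arrays and on 8 of 8 EDL arrays. The EDL arrays shared 1 slide, with old and young in different columns, and old and young soleus lay on a slide each. Slide or column and group therefore cannot be told apart in any comparison. Every retained spot of the 5 members was well above background on every array. Each member was measured by 2 probes of 10 spots each. The brightest probe was used, and its spots had a median SD of 0.07 to 0.11 log2 units within an array. The other probe followed it over the 16 arrays with r between 0.971 and 0.998. Levels of different miRNAs come from different probes and are not set against each other.

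miR-23a, miR-27a and miR-24 were higher in soleus than in EDL at both ages, by 1.59-fold to 2.39-fold, and miR-23b was higher by 1.23-fold to 1.32-fold. Calls were made at an adjusted p under 0.05, and 4 of 5 members were called higher at each age. Of all tested miRNAs, 17.5% were called higher in young soleus (41.2% in either direction) and 21.1% in old soleus (53.5% in either direction). With normexp background correction the count was 1 in young rats (miR-23a) and 3 in old rats (miR-23a, miR-27a and miR-24). It was 5 at each age with quantile normalisation, labelling spike-in scaling or the median of always detected probes. The direction depends on the scaling. With a percentile over all probes, or with no scaling, all 5 differences turned negative in old rats. In young rats miR-24, miR-23b and miR-27b turned negative under both settings, miR-27a did so with no scaling, and miR-23a stayed positive. Those settings also moved the median over all tested miRNAs, to -0.85 and -0.91 in young rats and to -1.04 and -1.56 in old rats, from about 0 in the main scaling.

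miR-23a, the first miRNA of the chromosome 19 cluster, stood at 1.80, 1.77, 1.54 and 1.64 on old soleus arrays 1 to 4 and at 1.57, 1.54, 1.72 and 1.57 on young soleus arrays 7 to 10. It stood at 0.71, 0.66, 0.49 and 0.97 on old EDL arrays 1 to 4 and at 0.35, 0.31, 0.22 and 0.50 on young EDL arrays 7 to 10. Every soleus array was above every EDL array. In young rats the difference was 1.26 (SE 0.09, 95% interval 1.05 to 1.47, adjusted p = 3.5e-07), or 2.39-fold. In old rats it was 0.98 (SE 0.09, interval 0.77 to 1.18, adjusted p = 4.95e-06), or 1.97-fold. The groups ran from old soleus (mean 1.69, SD 0.12) through young soleus (1.60, SD 0.08) and old EDL (0.71, SD 0.20) to young EDL (0.34, SD 0.12), and the groups next to each other overlapped within each muscle.

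miR-27a, its neighbour in the cluster, stood at 0.02, -0.04, -0.15 and -0.18 on old soleus arrays 1 to 4 and at -0.43, -0.45, -0.12 and -0.28 on young soleus arrays 7 to 10. On old EDL arrays 1 to 4 it stood at -0.99, -1.07, -1.26 and -0.84, and on young EDL arrays 7 to 10 at -1.41, -1.44, -1.47 and -1.17. The muscles again did not overlap at either age, and the order of the 4 group means was the same as for miR-23a. The difference in young rats was 1.06 (SE 0.10, interval 0.84 to 1.27, adjusted p = 3.49e-06), or 2.08-fold, and in old rats 0.95 (SE 0.10, interval 0.74 to 1.17, adjusted p = 8.9e-06), or 1.94-fold.

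miR-24, which either cluster can supply, lay between the cluster-specific members in the size of its difference. Its levels were 0.28, 0.22, 0.16 and 0.12 on old soleus arrays 1 to 4 and -0.12, 0.01, 0.24 and 0.12 on young soleus arrays 7 to 10. They were -0.41, -0.49, -0.69 and -0.31 on old EDL arrays 1 to 4 and -0.63, -0.63, -0.80 and -0.50 on young EDL arrays 7 to 10. No soleus array fell among the EDL arrays. The difference was 0.70 in young rats (SE 0.09, interval 0.50 to 0.90, adjusted p = 5.77e-05) and 0.67 in old rats (SE 0.09, interval 0.47 to 0.87, adjusted p = 5.46e-05).

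The chromosome 17 members differed less between the muscles. miR-23b stood at 0.45, 0.46, 0.41 and 0.44 on old soleus arrays 1 to 4 and at 0.52, 0.53, 0.66 and 0.63 on young soleus arrays 7 to 10. It stood at 0.17, 0.18, 0.02 and 0.20 on old EDL arrays 1 to 4 and at 0.26, 0.17, 0.02 and 0.31 on young EDL arrays 7 to 10. Its muscles did not overlap either, although the gap was small. The difference was 0.40 in young rats (SE 0.06, adjusted p = 0.000139) and 0.30 in old rats (SE 0.06, adjusted p = 0.000981).

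miR-27b had -1.21, -1.11, -1.12 and -1.24 on old soleus arrays 1 to 4 and -1.25, -1.09, -0.85 and -0.96 on young soleus arrays 7 to 10. It had -1.26, -1.16, -1.49 and -1.34 on old EDL arrays 1 to 4 and -1.27, -1.29, -1.49 and -1.06 on young EDL arrays 7 to 10. All 4 groups overlapped. Its difference of 0.24 in young rats (SE 0.10, interval 0.02 to 0.46, adjusted p = 0.0689) and of 0.14 in old rats (SE 0.10, interval -0.08 to 0.36, adjusted p = 0.273) did not pass the threshold. It passed in young rats when young EDL 10 or young soleus 7 was left out (0.33 at most). It also passed at both ages with some other scalings. With quantile normalisation it was 0.33 in young and 0.46 in old rats, and with labelling spike-in scaling 0.85 and 0.49. With the median of always detected probes it was 0.39 in young and 0.57 in old rats. Groups that did not overlap, with soleus higher, were found for 4 of 5 members at each age, against 15.8% of all tested miRNAs in young rats (34.2% in either direction) and 21.9% in old rats (52.6% in either direction). The median difference of the members was 0.70 in young rats and 0.67 in old rats, beside medians of 0.00 and -0.05 over all tested miRNAs. The 0.00 is the value of miRNAs held at the floor, a lower limit set on all levels. Over miRNAs well above background on all 16 arrays the medians were -0.02 in young rats and -0.16 in old rats. Some tested miRNAs were held at the floor on every array and could not be called, which lowers the shares over all tested miRNAs.

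**Figure D2:**
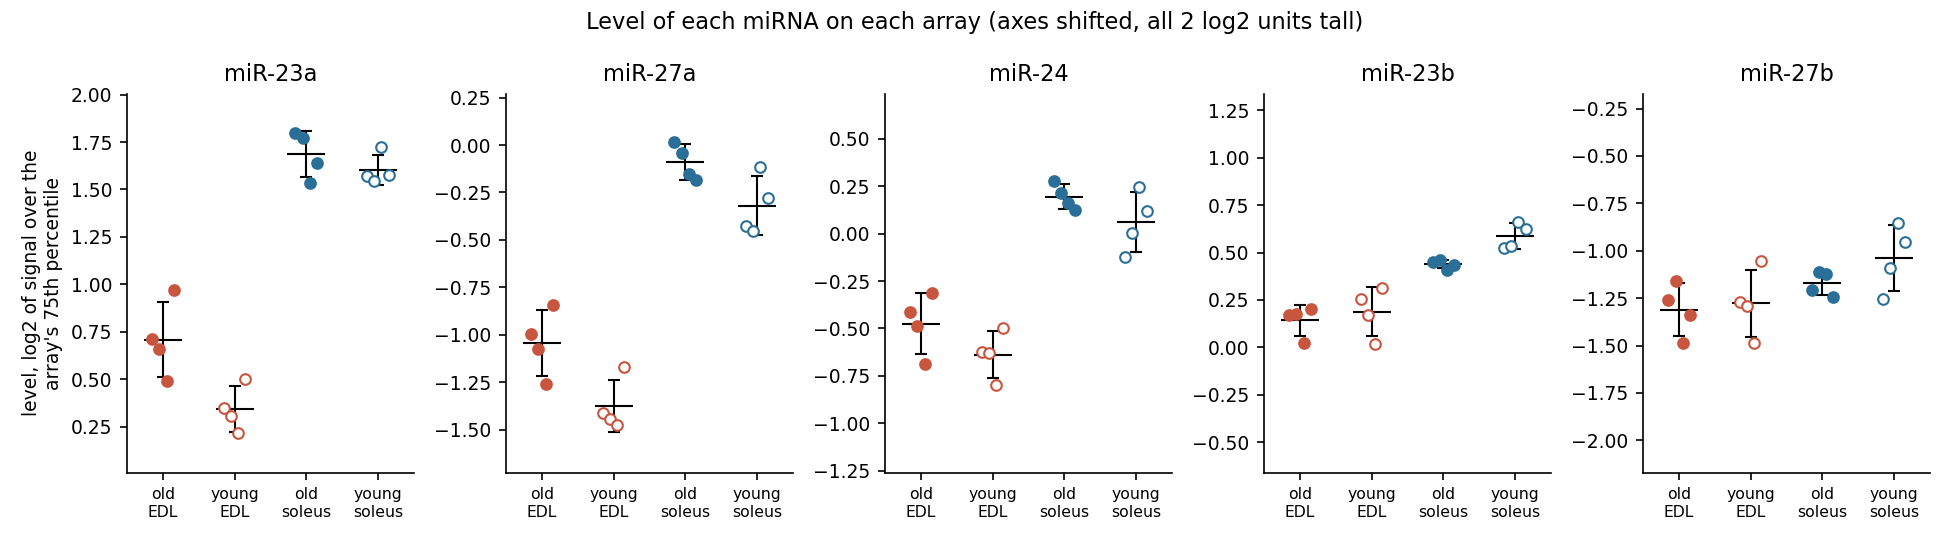
Level of each miRNA on each of the 16 arrays (log2 of signal over the array's 75th percentile; axes shifted, each 2 log2 units tall), with group means and SDs (n = 4). Old groups (filled) stand left of young groups (open) within EDL (orange) and soleus (blue); the soleus points lie above the EDL points for miR-23a, miR-27a, miR-24 and miR-23b, and all groups overlap for miR-27b. The soleus position depends on the scaling, and in old rats all 5 miRNAs were lower in soleus when arrays were left unscaled.

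With age, miR-23a and miR-27a were higher in old EDL than in young EDL, by 0.37 (SE 0.09, interval 0.16 to 0.57, adjusted p = 0.0243; 1.29-fold) and 0.33 (SE 0.10, interval 0.12 to 0.55, adjusted p = 0.0448; 1.26-fold). These 2 of 5 members were called, beside 10.5% of all tested miRNAs called higher and 12.3% called in either direction. None of the 5 had old and young EDL arrays that did not overlap, against 12.3% of all tested miRNAs. For miR-23a the overlap was narrow, since the lowest old EDL array stood at 0.49 and the highest young EDL array at 0.50. The other members differed by 0.16 for miR-24 (SE 0.09, adjusted p = 0.368), -0.05 for miR-23b (SE 0.06, adjusted p = 0.811) and -0.03 for miR-27b (SE 0.10, adjusted p = 1).

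The EDL calls rested on single arrays and on the scaling. No member was called without old EDL 1, old EDL 4, young EDL 7, young EDL 8 or young EDL 9, and 1 was called without old EDL 2, young soleus 10 or any old soleus array. The differences themselves stayed positive when arrays were left out, at 0.28 to 0.44 for miR-23a and 0.27 to 0.41 for miR-27a. No member was called under 4 of the other ways of scaling, and after quantile normalisation the 1 member called was miR-27b, lower in old EDL at -0.19. Under those 5 scalings the difference ranged from 0.06 to 0.63 for miR-23a and from 0.02 to 0.60 for miR-27a.

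In soleus 0 of 5 members were called with age by limma, beside 3.51% of all tested miRNAs, and 2 of 5 had an unadjusted p under 0.05. miR-27a was 0.23 higher in old soleus (SE 0.10, interval 0.01 to 0.45, adjusted p = 0.13), and miR-23b was lower, at -0.15 (SE 0.06, interval -0.27 to -0.02, adjusted p = 0.125). miR-23b was also the 1 member whose old and young soleus arrays did not overlap, where 13.2% of all tested miRNAs lay wholly lower in old soleus and 21.9% did not overlap in either direction. The differences were 0.08 for miR-23a (SE 0.09), 0.13 for miR-24 (SE 0.09) and -0.13 for miR-27b (SE 0.10), with adjusted p between 0.384 and 0.653. These age differences depend on the scaling: that of miR-27a was negative under 3 other scalings (-0.14 to -0.04) and was called higher with the median of always detected probes (0.35). With labelling spike-in scaling miR-23b and miR-27b were called lower (-0.45 and -0.44), and 44 of the 114 tested miRNAs were called lower in all. Without young soleus 7, the dimmest array, 2 members were called, both lower in old soleus: miR-23b at -0.23 and miR-27b at -0.27. The members' median age difference was 0.16 in EDL and 0.08 in soleus, beside 0.00 over all tested miRNAs in each muscle. That 0.00 is the value of miRNAs held at the floor. Over miRNAs well above background on all 16 arrays the medians were 0.05 in EDL and -0.08 in soleus.

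The age differences were not shown to differ between muscles. For the soleus age difference minus the EDL age difference 0 of 5 members were called by limma and 0 had an unadjusted p under 0.05, beside 0.877% of all tested miRNAs called. miR-23a had the largest value of the 5, -0.28 (SE 0.13, interval -0.57 to 0.01, adjusted p = 0.396). The intervals of the other 4 ran from -0.41 to 0.25. These intervals span the size of the EDL age differences themselves.

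**Figure D3:**
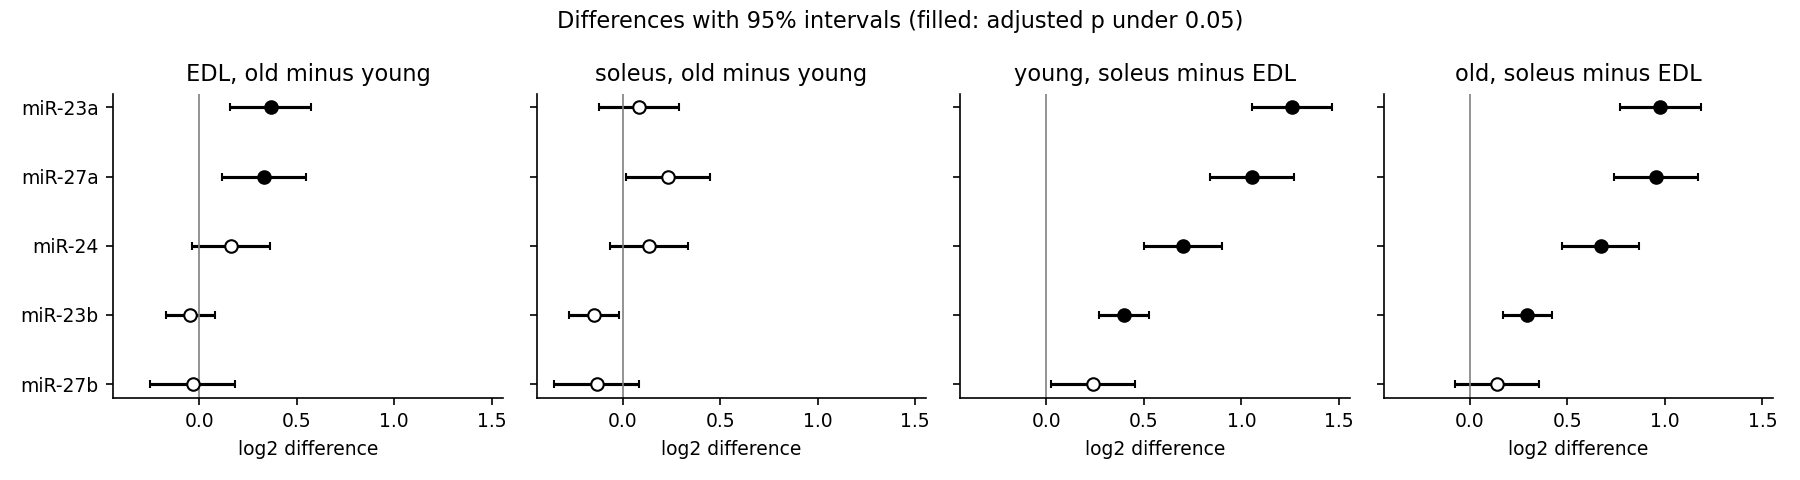
Differences in level (x axis, log2) with limma 95% intervals for the 5 miRNAs, in 4 comparisons of 4 arrays with 4; filled points had an adjusted p under 0.05. The points fall in the order miR-23a, miR-27a, miR-24, miR-23b, miR-27b in both muscle comparisons, which are shown in the main scaling and turned negative for all 5 miRNAs in old rats with no scaling. In the age comparisons the filled points are miR-23a and miR-27a in EDL.

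The paralogs were then compared within each array, where any single scaling factor per array cancels. The size of a ratio still depends on the probes, so its sign on one array has no meaning, and the comparison is between groups. Each paralog pair had the chromosome 19 member relatively higher in soleus than in EDL, and relatively higher in old than in young rats. Of the 113 other tested miRNAs set against miR-23b, 7.08% were called higher in young soleus (81.4% in either direction) and 15% in old soleus (85% in either direction). With age, 20.4% were called higher in EDL (21.2% in either direction) and 18.6% in soleus (22.1% in either direction).

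The log2 ratio of miR-23a over miR-23b was 1.35, 1.31, 1.13 and 1.20 on old soleus arrays 1 to 4 and 1.05, 1.01, 1.06 and 0.95 on young soleus arrays 7 to 10. It was 0.54, 0.48, 0.47 and 0.77 on old EDL arrays 1 to 4, and 0.09, 0.14, 0.20 and 0.19 on young EDL arrays 7 to 10. The 4 groups did not overlap with each other, and both orders, soleus above EDL and old above young, held on every array. The share of other miRNAs whose ratio to miR-23b separates the groups in this way was not counted. Between muscles the ratio differed by 0.86 in young rats (SE 0.07, adjusted p = 6.56e-08) and 0.68 in old rats (SE 0.07, adjusted p = 6.21e-07). With age it differed by 0.41 in EDL (SE 0.07, adjusted p = 0.000521) and by 0.23 in soleus (SE 0.07, adjusted p = 0.0269). The soleus age call was lost without old soleus 1, old soleus 2, young soleus 8 or young soleus 10, and the lowest difference with a single array left out was 0.20.

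The log2 ratio of miR-27a over miR-27b was 1.23, 1.07, 0.97 and 1.06 on old soleus arrays 1 to 4 and 0.82, 0.64, 0.74 and 0.67 on young soleus arrays 7 to 10. It was 0.26, 0.08, 0.23 and 0.50 on old EDL arrays 1 to 4, and -0.14, -0.15, 0.01 and -0.11 on young EDL arrays 7 to 10. These 4 groups did not overlap either, and the share of other miRNAs whose ratio to miR-27b separates them was not counted. The muscle difference was 0.82 in young rats (SE 0.09, adjusted p = 1.6e-06) and 0.81 in old rats (SE 0.09, adjusted p = 1.15e-06), where 52.2% and 60.2% of the miRNAs set against miR-27b were called in either direction. The age difference was 0.37 in EDL (SE 0.09, adjusted p = 0.0105) and 0.36 in soleus (SE 0.09, adjusted p = 0.0144), where 11.5% and 14.2% were called. The soleus age call was lost without young soleus 8, and the lowest difference with a single array left out was 0.32.

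Set against miR-23b in this way, miR-23a, miR-27a and miR-24 were called higher in all 4 comparisons. miR-27a differed by 0.66 between muscles at each age (SE 0.07), and by 0.38 with age in each muscle (SE 0.07, adjusted p = 0.000996 in EDL and 0.00256 in soleus). miR-24 differed by 0.30 in young and 0.37 in old rats between muscles, and by 0.21 in EDL (SE 0.06, adjusted p = 0.0209) and 0.28 in soleus (SE 0.06, adjusted p = 0.00433) with age. Its EDL call was lost without old EDL 1, old EDL 4 or young EDL 7. The age calls depend on the reference. Set against miR-27b, miR-23a was called in EDL (adjusted p = 0.0176) but not in soleus (0.22, adjusted p = 0.226). Also against miR-27b, miR-24 was called in soleus (adjusted p = 0.0339) but not in EDL (0.20, adjusted p = 0.122). Set against miR-23a, miR-23b was called lower in EDL (adjusted p = 0.00214) but not in soleus (-0.23, adjusted p = 0.119). With background corrected by the normexp method in place of the scanner software's, no member was called against miR-23b in either age comparison, and miR-23a alone was called in both muscle comparisons.

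The neighbours within a cluster were compared in the same way. miR-27b over miR-23b, the chromosome 17 neighbours, differed by 0.01 with age in each muscle (SE 0.07, intervals -0.13 to 0.16). Between muscles it differed by -0.16 at each age, lower in soleus (SE 0.07, adjusted p = 0.0403 in young rats and 0.0424 in old rats). Of all miRNAs set against miR-23b, 74.3% were called lower in young soleus and 69.9% in old soleus, so this call is near the background. It was lost in young rats without young soleus 7 or 8, old EDL 1 or young EDL 8 or 10. In old rats it was lost without old soleus 1, 2 or 4, young soleus 8 or 10, old EDL 1 or 2 or young EDL 8. With single arrays left out the difference ran from -0.19 to -0.11 in young rats and from -0.19 to -0.12 in old rats. miR-27a over miR-23a, the chromosome 19 neighbours, differed by -0.03 with age in EDL (SE 0.07, interval -0.18 to 0.12) and by 0.15 in soleus (SE 0.07, interval -0.01 to 0.30). Between muscles it was lower in young soleus, at -0.20 (SE 0.07, adjusted p = 0.0132), and differed by -0.02 in old rats (SE 0.07, adjusted p = 0.761), where 93.8% and 86.7% of the miRNAs set against miR-23a were called. None of these relative age differences was called as different between the muscles.

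**Figure D4:**
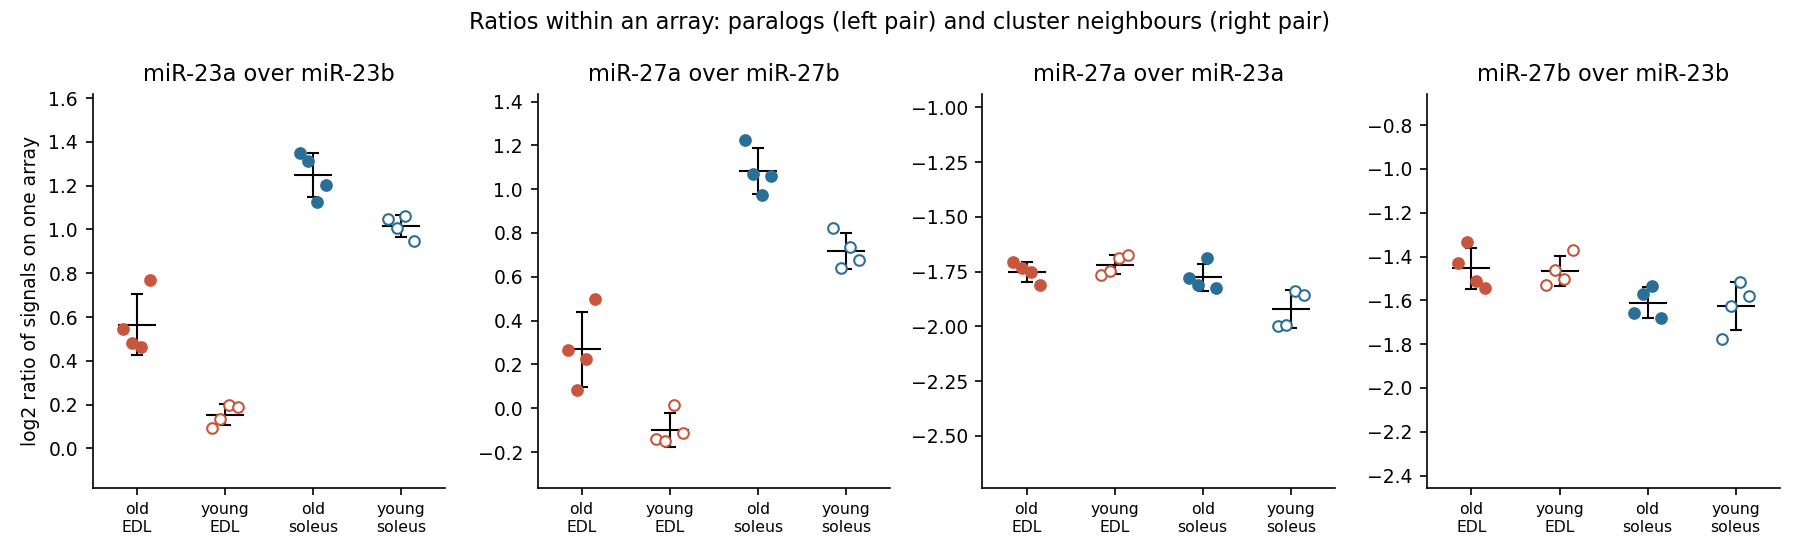
Log2 ratios of signals within an array (y axis, all panels of equal height), for the paralogs miR-23a over miR-23b and miR-27a over miR-27b and for the cluster neighbours miR-27a over miR-23a and miR-27b over miR-23b. Points are arrays and bars are means with SDs (n = 4). The 4 groups separate for both paralog pairs, with young EDL lowest and old soleus highest, while the group means of the neighbour ratios run from -1.92 to -1.72 and from -1.62 to -1.45. How many ratios of other miRNAs separate the groups was not counted.

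Array brightness moved with the muscle comparison. A fit with brightness as a covariate is among the alternatives described at the end, and the cause of the differences was not tested. Within EDL the members' levels correlated with the array's percentile signal, with r from 0.57 to 0.82 over 8 arrays that share 1 slide, and within soleus r ran from -0.03 for miR-23a to 0.92 for miR-27b. For the ratio of miR-23a over miR-23b, r was 0.28 in EDL and -0.44 in soleus, and for miR-27a over miR-27b it was 0.13 and -0.51 (8 arrays each).

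The size of the muscle difference depends on how arrays are brought to one scale. Of the 6 scalings tried, 5 apply a single factor to each array and so keep the gaps between members by construction. Quantile normalisation, which can change them, kept the order in young rats and put miR-27b above miR-23b in old rats. Over these 6 scalings, the difference of miR-23a in young rats lay 1.01 to 1.55 above the median difference of all tested miRNAs, that of miR-27a 0.81 to 1.35 above it and that of miR-24 0.45 to 0.99 above it. miR-23b lay 0.15 to 0.69 above that median, and miR-27b between -0.01 and 0.53. In old rats these ranges were 0.85 to 1.31 for miR-23a, 0.82 to 1.28 for miR-27a, 0.54 to 1.001 for miR-24, 0.17 to 0.63 for miR-23b and 0.01 to 0.64 for miR-27b.

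**Figure D5:**
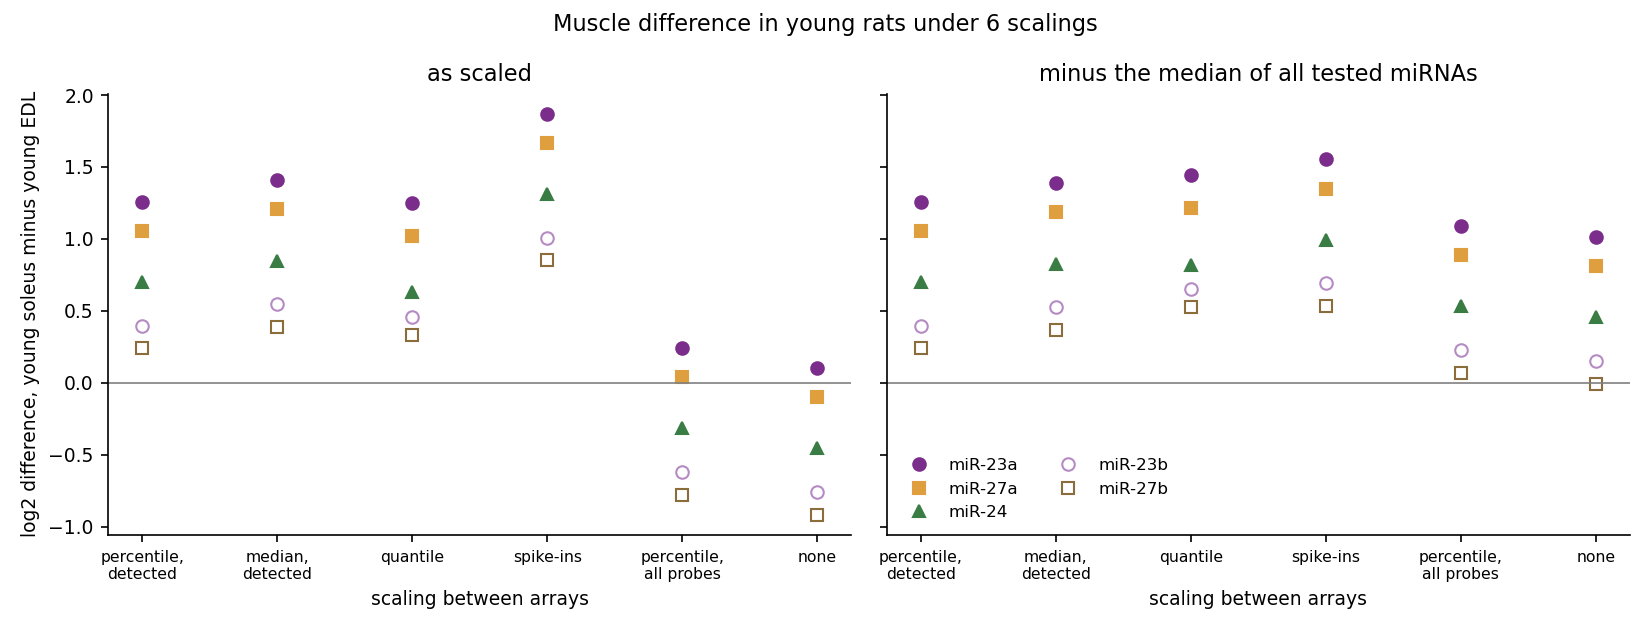
Difference in young rats, soleus minus EDL (y axis, log2), for the 5 miRNAs under 6 scalings (x axis), as scaled on the left and minus the median of all tested miRNAs on the right. On the left the values shift together and cross 0 with a percentile over all probes (miR-24, miR-23b, miR-27b) and with no scaling (these and miR-27a); on the right miR-23a lies between 1.01 and 1.55. All scalings except quantile normalisation apply 1 factor to each array, which fixes the order of the points.

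The members' levels correlated with each other from array to array. Over the 16 arrays, which share the group differences and the array scaling, r was 0.99 between miR-23a and miR-27a, 0.99 between miR-27a and miR-24 and 0.98 between miR-23a and miR-24. It was 0.83 between miR-23b and miR-27b, and 0.59 between miR-23a and miR-27b. Taken on deviations from the group means, r was highest for miR-27a with miR-24 (0.93) and for miR-23a with miR-27a (0.90). miR-24 correlated with miR-23b (0.86) about as closely as with miR-23a (0.83), r of miR-23b with miR-27b was 0.84, and the lowest was 0.47 for miR-23a with miR-27b.

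Outside the clusters, the tested miRNAs whose levels were most like those of the members included the muscle miRNAs miR-206 and miR-499. For miR-23a these were miR-206 (r = 0.97 over 16 arrays), miR-499 (0.95) and miR-378* (0.93), and the same 3 led for miR-27a, miR-24 and miR-23b. Not all muscle miRNAs were higher in soleus: of the 5 tested, 2 were called higher and 2 lower in soleus at each age. miR-1 averaged 3.27 in old soleus and 3.55 in young soleus, against 4.05 in old EDL and 4.04 in young EDL. miR-133a averaged 0.43 in old soleus and 0.65 in young soleus, against 1.20 in old EDL and 1.26 in young EDL. miR-499 is encoded within a slow myosin gene. miR-499 averaged -1.51 in old soleus (SD 0.24) and -1.08 in young soleus (SD 0.31), against -4.86 in old EDL and -4.85 in young EDL. Of the 8 EDL arrays 6 stood at the floor of -4.88, below which no level was read, so the muscle difference is measured from the floor and no size is given for it. For miR-27b the most alike were miR-128 (0.78), miR-499 (0.64) and miR-195 (0.63). The r over 16 arrays takes in the differences between groups. On deviations from the group means, r of miR-23a was 0.52 with miR-206, 0.31 with miR-499 and -0.06 with miR-378*. On the same deviations r of miR-499 was 0.61 with miR-27a, 0.59 with miR-24, 0.40 with miR-23b and 0.63 with miR-27b.

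Markers of other cell types were read beside the muscle comparison because both clusters are known from vessels. The endothelial marker miR-126 was called lower in old soleus than in old EDL (-0.48, SE 0.13, adjusted p = 0.00654), and in young rats it differed by -0.33 (SE 0.13, adjusted p = 0.0532). Its partner miR-126* was held at the floor on each of the 16 arrays and could not be compared. The summed level of the pair, which miR-126 sets,, as a linear ratio to the percentile, was 0.412 to 0.492 in old soleus and 0.435 to 0.523 in young soleus, against 0.502 to 0.711 in old EDL and 0.477 to 0.658 in young EDL. The smooth muscle markers miR-143 and miR-145 were both called lower in soleus at each age. Their summed level was 0.410 to 0.528 in old soleus and 0.473 to 0.597 in young soleus, against 0.641 to 0.849 in old EDL and 0.621 to 0.836 in young EDL.

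Of the 4 leukocyte markers 2 were tested, with miR-223 called higher and miR-150 called lower in soleus at each age, and none was called with age. miR-142-5p was not well above background on any array, nor were erythroid miR-144 and neural miR-9 and miR-124. The tested erythroid marker, miR-451, differed with age by 1.19 in EDL (SE 0.59, adjusted p = 0.256) and 0.73 in soleus (SE 0.59, adjusted p = 0.477), and every group had 2 or more arrays at the floor. The tested neural marker, miR-128, was called higher in young soleus than in young EDL (0.38, SE 0.13, adjusted p = 0.0267), as were 4 of the 5 members. In old rats miR-128 differed by -0.09 between the muscles (SE 0.13, adjusted p = 0.602). Of 3 fibroblast markers, 3 were called lower in young soleus and 0 in old soleus, and 1 was called higher in old soleus with age. Of the 7 muscle miRNAs listed 5 were tested, since miR-208 was not well above background on any array and miR-208b has no probe by that name. Their summed level was 54.4 to 64.4 in old soleus and 68.1 to 79.8 in young soleus, against 54.0 to 60.9 in old EDL and 46.8 to 59.8 in young EDL. The part of cell makeup in the members' differences was not tested.

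The passenger strands of the same hairpins were near background. Of 6 passenger entries, 5 were not well above background on any array, with processed signals of at most 5.86 units. miR-24-2*, from the chromosome 19 hairpin, was well above background on 2 of 16 arrays, old EDL 4 (30.7 units) and old EDL 2 (22.0 units), which were among the 4 brightest arrays, and it was not tested. The 3 miRNAs next to the clusters, named here for their position, were not well above background on any array. They are miR-181c and miR-181d, which lie 28448 and 28631 bases from the miR-23a cluster, and miR-3074, whose hairpin overlaps Mir24-1.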

How the data were processed

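Spot intensity (gProcessedSignal) was deposited by the authors as Agilent Feature Extraction output, version 10.7.3.1 per the file headers and 10.7 per the submitters' processing notes, with the array grid annotated on build rn4 per the headers. Per the file headers no scaling between arrays is recorded. Total RNA was labelled with Cy3, per the labels' protocols. The series value table equalled this column in 100% of cells.

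Control and outlier-flagged spots (3.03%) were left out, the spots of a probe were averaged (1644 probes, 677 miRNAs), and the brightest probe stood for a miRNA. Each array was divided by its 75th percentile over the 95 probes well above background on all 16 arrays. Values were raised to a floor of 0.0339 (log2 -4.88) and put on the log2 scale. The 114 miRNAs well above background on 4 or more arrays were tested in 1 limma 3.58.1 fit (R 4.3.3, 12 residual degrees of freedom before moderation, two-sided, Benjamini-Hochberg at 0.05 over all tested). Relative fits subtracted miR-23b (or miR-27b or miR-23a) on the same array from every other tested miRNA. The number of arrays limits the precision. The fit was tried on simulated data with independent scatter for each miRNA and array. Those data held no shared array effect, brightness, slide or floor, so the trial does not bear on these.

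Named are the members, their passenger strands, the 3 most correlated miRNAs of each member and the markers. Members, lists and tests were chosen with earlier results of these data known. Numbers shared between groups were checked for pairing. By source label, 4 of 8 pairs correlated over 0.1 (r from -0.59 to 0.60), and by title 5 of 8 (-0.33 to 0.75). These mixed values do not settle whether same-numbered EDL and soleus arrays came from one rat. The labels state no pairing, and arrays were taken as unpaired. Alternatives covered scaling, background, signal column, probes, filter, floor, samples, brightness, blocks and leaving out arrays. Added after the data were seen were leaving out young soleus 7 and 8 together and using the dimmer probe of each member. Sequences came from RefSeq (GRCr8).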

Additional observations from a re-analysis of the deposited data

How the results depend on the processing

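The limits are those of 16 arrays on 3 slides, where slide or column and group cannot be told apart, soleus arrays are dimmer, and no probe sequence shows how far paralog probes bind each other's target. Counts of members called were recomputed under each alternative, those relative to miR-23b under each except the scalings. The cause of a change was not tested unless stated. In EDL with age the count of 2 became 0 with a percentile over all probes, no scaling, labelling spike-in scaling, the median of always detected probes, normexp background, gTotalGeneSignal (the software's signal per miRNA) or only the 8 arrays of the comparison, which have fewer degrees of freedom. It became 1 with quantile normalisation (miR-27b, lower), and 1 with no shared floor or with the other probe of each member, and ran from 0 to 2 with single arrays left out. In soleus with age the count of 0 became 2 with labelling spike-in scaling (miR-23b and miR-27b lower) and 2 with no filter on dim probes. It became 1 with the median of always detected probes, 1 with array brightness as a covariate and 1 with young soleus 7 and 8 left out, and ran from 0 to 2 with single arrays left out. For the difference of age effects the count of 0 became 3 with spike-in scaling. Between muscles the count of 4 became 0 in young and 0 in old rats with a percentile over all probes, 0 in young rats with no scaling (3 in old rats, all lower in soleus), and 1 in young rats with normexp (3 in old rats). That count became 5 at each age with quantile normalisation, labelling spike-in scaling or the median of always detected probes. Leaving out single arrays gave 4 to 5 in young rats and 4 in old rats. Relative to miR-23b, only normexp among the recomputed alternatives changed a count by over 1.5 times, with 0 in EDL and 0 in soleus with age and 1 at each age between muscles. Leaving out single arrays gave 2 to 3 with age and 3 to 4 between muscles. A single factor per array cancels in these ratios, but quantile normalisation does not, and relative counts under it were not computed. After it the EDL age differences were 0.22 for miR-23a and -0.04 for miR-23b. In old rats miR-27b (0.46) then stood above miR-23b (0.30) between muscles, the reverse of the main scaling.

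Single differences changed sign as follows. Old minus young soleus with spike-in scaling was -0.22 for miR-23a, -0.17 for miR-24 and -0.076 for miR-27a, with no scaling -0.19, -0.14 and -0.040, and with a percentile over all probes -0.29, -0.24 and -0.14. With young soleus 7 and 8 left out, miR-24 was -0.011, and miR-27b relative to miR-23b was -0.062. Soleus minus EDL in old rats with no scaling was -0.71 for miR-23a, -1.40 for miR-23b, -1.02 for miR-24, -0.74 for miR-27a and -1.55 for miR-27b. With a percentile over all probes these were -0.10, -0.79, -0.41, -0.13 and -0.94. In young rats no scaling gave -0.76 for miR-23b, -0.46 for miR-24, -0.10 for miR-27a and -0.92 for miR-27b, and a percentile over all probes -0.62 for miR-23b, -0.32 for miR-24 and -0.78 for miR-27b. Old minus young EDL with no scaling was 0.22 for miR-23b and 0.23 for miR-27b. For miR-24 it was -0.0021 with the median of always detected probes, -0.014 with normexp and -0.15 with a percentile over all probes. For miR-27b relative to miR-23b it was -0.0099 with the brightness covariate and -0.26 with normexp. The difference of age effects with the median of always detected probes was 0.18 for miR-23b, 0.25 for miR-24, 0.18 for miR-27a and 0.18 for miR-27b. Normexp gave 0.11 for miR-24, 0.17 for miR-27a and 0.21 for miR-27b, and quantile normalisation 0.082, 0.074 and 0.13. The brightness covariate gave 0.076 for miR-24 and 0.019 for miR-27b. With single arrays left out, old minus young EDL ran from -0.10 to 0.0041 for miR-23b and from -0.10 to 0.047 for miR-27b, and the difference of age effects from -0.12 to 0.031 for miR-24. miR-27b relative to miR-23b ran from -0.028 to 0.043 in EDL and from -0.036 to 0.050 in soleus with age.

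Some same-numbered arrays deviated together and others did not, so a pairing was neither shown nor excluded. By source label 1 of 8 correlated best with its own number, and by title 3 of 8 did (r of 0.75, 0.70 and 0.58). With the title number as a replicate block the EDL age count was 1, and neither block changed another count by over 1.5 times.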
